A study of Mus musculus with 10 samples.

Results

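Proteins that sit on titin, the giant elastic filament of the sarcomere, and on the actin filaments that end at the intercalated disc are thought to report stretch from the contractile apparatus to the rest of the cardiomyocyte. The genes described here are 9 such genes of mouse heart muscle: the LIM-domain genes Fhl1 and Fhl2, the muscle ankyrin repeat genes Ankrd1, Ankrd2 and Ankrd23, the Xin repeat genes Xirp1 and Xirp2, and the small muscle genes Smpx and Mlip. They were chosen by name from the 23337 genes in the authors' deposited table. There, 8 were listed under these symbols and 1, Mlip, under its older symbol 2310046A06Rik, which the RefSeq gene table gives as a synonym.

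The libraries came from cardiomyocytes of wild-type mice that received adeno-associated virus AAV9 on postnatal day 1, at 5e+08 viral genomes per gram, and whose cells were taken on postnatal day 14. The 5 biological replicates of the GFP group had AAV9-cTNT-GFP and the 5 of the dnMKL1 group AAV9-cTNT-dnMKL1-GFP, so both groups carried the virus and GFP behind the cardiac troponin T promoter. dnMKL1 is a dominant-negative form of MKL1 (MRTF-A), a coactivator of serum response factor (SRF). Per the labels, cells were freed by collagenase perfusion and sorted by fluorescence; the gate is not described there. The question put to the 9 genes is whether blocking MKL1 in these cells goes with higher or lower transcript levels.

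The single table analysed here is the authors' comparison of the groups and holds no value per library. It gives each gene a base mean, which is the average over the libraries of counts divided by a size factor (normalized counts), and a log2 fold change with its standard error (SE). A gene is called changed at an adjusted Wald p-value under 0.05, as the authors computed it with DESeq2. The table does not state the direction of the fold change. It was read from Mkl1, whose sequence the vector carries: the authors' deposited table gave 9.80 (SE 0.15), so positive values are taken as higher with dnMKL1. The mean of each group was worked out from the base mean and fold change and is called the implied mean. Library totals estimated from recovered size factors ran from 8803005 to 17228619 counts.

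FHL1 and FHL2 are built almost wholly of LIM domains and bind the extensible I-band part of titin, where FHL1 is found with kinases of the Raf-MEK-ERK cascade. The ankyrin repeat proteins bind a neighbouring stretch of the titin spring and also enter the nucleus. Xin proteins bind and bundle actin filaments at the intercalated disc, next to N-cadherin, beta-catenin and filamin C. In the heart Ankrd1 is widely used as a marker of load and injury, and variants of human FHL1 cause muscle disease.

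Sequence before the transcription starts is shown first, because dnMKL1 acts on a coactivator of SRF, whose binding site is the CArG box. The 250 bases before each start in the RefSeq promoter table (build GRCm38) were searched on both strands for the CArG box, for the MEF2 site, and for the MCAT element bound by TEAD factors, GGAATG in either orientation. Of the 9 genes, 8 had an entry, with 12 promoters between them. Xirp1 had none and was not searched. An exact CArG box stood in 1 of 2 Fhl1 promoters and in both Fhl2 promoters, against 1.47% of all 32851 promoters of that length. Fhl2 and Xirp2 had a MEF2 site (2.92% of all promoters), and Ankrd1 had 2 MCAT elements, with 1 each in a promoter of Ankrd23 and of Mlip (12.6% of all promoters have at least 1). None of these matches overlapped another. Capitals mark the motif in each line, which runs 5′ to 3′ on the gene's own strand.
Fhl1, CArG box at 102 to 93 bases before the start, chrX:56779556-56779615, plus strand: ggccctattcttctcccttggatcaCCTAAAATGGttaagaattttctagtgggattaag
Fhl2 inner promoter, CArG box at 31 to 22 bases before the start, chr1:43163962-43164017, minus strand: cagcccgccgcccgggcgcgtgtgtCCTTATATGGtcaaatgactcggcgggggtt
Fhl2 outer promoter, CArG box at 96 to 87 bases before the start, chr1:43196838-43196867, minus strand: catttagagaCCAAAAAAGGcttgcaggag
Fhl2 outer promoter, MEF2 site at 31 to 22 bases before the start, chr1:43196773-43196802, minus strand: tggacatgccTTATTTATAActctgctgac
Xirp2, MEF2 site at 74 to 65 bases before the start, chr2:67445903-67445962, plus strand: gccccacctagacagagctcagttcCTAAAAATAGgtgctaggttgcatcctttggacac
Ankrd1, outer MCAT element at 210 to 205 bases before the start, chr19:36120039-36120064, minus strand: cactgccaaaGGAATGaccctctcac
Ankrd1, inner MCAT element at 123 to 118 bases before the start, chr19:36119952-36119977, minus strand: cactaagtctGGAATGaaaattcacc

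By the GENCODE annotation on GRCm38, the Fhl1 stretch and the inner Fhl2 stretch lie within their genes and outside annotated exons, and the Xirp2 stretch lies upstream of the gene. The outer Fhl2 stretches and both Ankrd1 stretches touch an exon of a longer transcript of the same gene and are shown at up to 30 bases. A match is a description of these letters and not evidence of binding.

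Among the 8 genes that had an adjusted p-value, Fhl1, Xirp2 and Ankrd1 rose with dnMKL1, Smpx fell, and Fhl2, Ankrd23, Xirp1 and Mlip did not pass the test. In the same comparison 16.6% of the 14056 genes tested were higher and 17.4% lower, 34.1% in either direction, and the 4 of 8 called here is read against that share. The median log2 fold change over the 8 was 0.091, beside 0.021 over all genes tested. The rises ran from 1.37-fold to 2.11-fold, and each family with 2 measured members held 1 called and 1 uncalled gene. Implied means of all 9 added up to 74795 normalized counts with GFP and 79111 with dnMKL1.

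**Figure D1:**
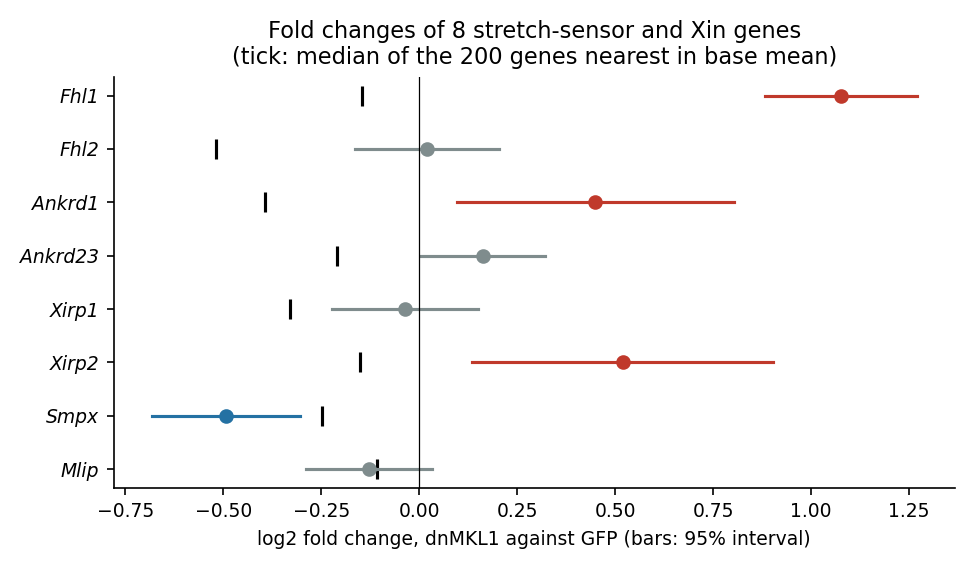
Log2 fold change of dnMKL1 against GFP for the 8 genes with an adjusted p-value (points; bars, 95% interval from the deposited SE; red, higher; blue, lower; grey, not called), with a black tick at the median of the 200 genes nearest in base mean. Fhl1 stands apart at 1.08, and the tick lies left of the point for each gene but Smpx and Mlip.

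**Figure D2:**
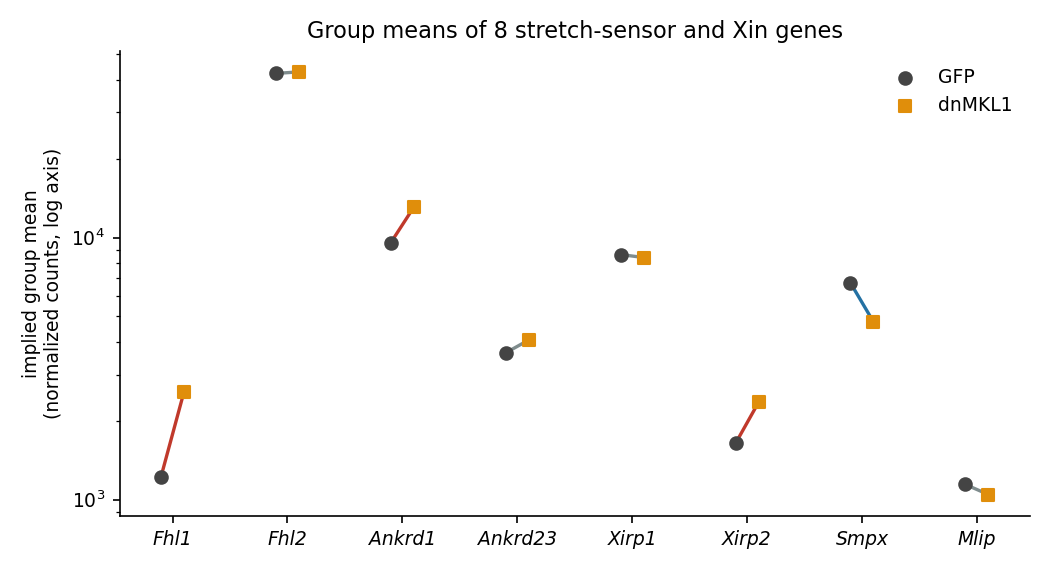
Implied group means in normalized counts on a log axis, GFP (circles) and dnMKL1 (squares), with the joining line red or blue where the gene was called higher or lower. Fhl1 rose from 1224 to 2581 and Smpx fell from 6710 to 4766, while the 2 Fhl2 symbols, at 42272 and 42849, lie level.

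Fhl1 had the firmest change of the 9 genes. Its implied mean was 1224 normalized counts with GFP and 2581 with dnMKL1, which is 2.11-fold (95% interval 1.84 to 2.41). The authors' deposited table gave a log2 fold change of 1.08 (SE 0.10) with a Benjamini-Hochberg adjusted Wald p of 3.6e-25. 36 of the 14056 genes tested had a smaller adjusted p, though 891 had a larger rise. The SE corresponds to a spread between libraries of about 10.5% of the group mean beyond counting error. This spread, here and below, is worked out from the SE with a common value for both groups and was not measured from the libraries. The gene spans 56731787 to 56793346 on chromosome X, plus strand.

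Fhl2, which had the highest base mean of the 9 genes, was level under the authors' scaling. Implied means were 42272 and 42849 normalized counts, a 1.01-fold ratio (95% interval 0.893 to 1.15). The authors' deposited table gave 0.02 (SE 0.09, adjusted Wald p = 0.910). Its rank by base mean was 21 among 17371 genes above 0. The intervals of Fhl1 and Fhl2 were far apart, although the difference itself was not tested, since both come from the same libraries and their covariance is not in the table. The gene lies on chromosome 1 from 43123074 to 43196984, minus strand. It carries CArG boxes at both promoters and was not called, whereas Fhl1 carries 1 and rose. Promoter use was not measured, and a part of the boxes in either value was not tested.

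Genes nearest to Fhl2 in abundance did not stay level. The 200 genes closest in base mean had a median log2 fold change of -0.52, and relative to that median Fhl2 stood at 0.54 (adjusted p = 1.6e-07 from the shifted fold change and the deposited SE). As Fhl2 ranked 21 by base mean, most of those 200 genes were less abundant than Fhl2. They reached below the base mean of Xirp1, which was 8499. The adjusted p also takes their median as fixed. The neighbours of Ankrd1 had a median of -0.39 and those of Xirp1 had -0.33. Relative to such medians 6 of the 8 genes stood between 0.29 and 1.22, while Mlip stood at -0.02 and Smpx at -0.24. At an adjusted p under 0.05 that made 6 higher and 1 lower, beside 16.7% and 15.6% of all genes tested on the same scale.

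**Figure D3:**
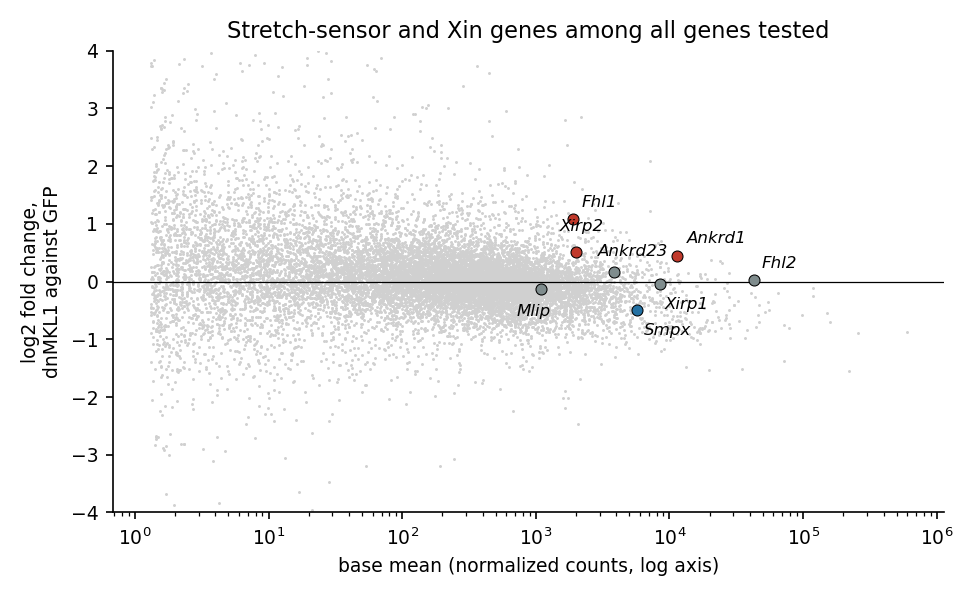
Log2 fold change of dnMKL1 against GFP over base mean (log axis) for all genes tested (grey), with the 8 genes named and coloured as called higher (red), lower (blue) or not called (grey with a black rim). Fhl2 sits at 0.02 where the surrounding cloud lies mostly below 0, and 33 genes beyond 4 log2 units are not drawn.

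Ankrd1 encodes the cardiac ankyrin repeat protein, which is held at titin and at the Z-disc protein myopalladin. It rose from an implied mean of 9565 to 13061 normalized counts, 1.37-fold (95% interval 1.07 to 1.75). The authors' deposited table gave 0.45 (SE 0.18, adjusted Wald p = 0.0393). The SE was larger than the 0.11 that was the median among genes of like base mean, and corresponds to a spread of about 19.8% between libraries. The call did not hold at an adjusted p under 0.01. Ankrd1 occupies 36111961 to 36120099 on chromosome 19, minus strand.

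Ankrd23, the ankyrin repeat gene named for its response to diabetes, had implied means of 3632 and 4065 normalized counts. The authors' deposited table gave 0.16 (SE 0.08, adjusted Wald p = 0.107), so the gene did not pass. Its 95% interval, which is not adjusted for the number of genes, ran from 1.003-fold to 1.25-fold, just above no change. Before adjustment the Wald p was 0.0435. The gene lies on chromosome 1 from 36530188 to 36536883, minus strand, and the GENCODE gene Gm42417 overlaps it on the same strand.

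Ankrd2, the ankyrin repeat gene best known from slow skeletal muscle, was at the floor of detection. Its base mean of 0.196 normalized counts in the authors' deposited table equals 1 read in each of 2 dnMKL1 libraries and 0 reads in the other libraries, the only combination of up to 3 reads that gives this value. Both groups are under 3 counts, so no fold is given and the gene had no adjusted p-value. A count of 0 in the 5 GFP libraries allows up to 3 counts there, a limit that covers counting error only. Markers of skeletal muscle fibres ran from a base mean of 0.093 normalized counts for Myh1 to 42.9 for Tnni2 and 1016 for Mybpc2 in the authors' deposited table.

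Xirp2 rose and Xirp1 did not pass the test. Xirp2 went from an implied mean of 1641 to 2352 normalized counts, 1.43-fold (95% interval 1.10 to 1.87), and the authors' deposited table gave 0.52 (SE 0.20, adjusted Wald p = 0.0265). Its SE corresponds to a spread between libraries of about 21.3%, the widest of the 8, and its call did not hold at an adjusted p under 0.01. Xirp1 had implied means of 8609 and 8390 normalized counts. The authors' deposited table gave -0.04 (SE 0.10, adjusted Wald p = 0.823), with a 95% interval from 0.857-fold to 1.11-fold. Xirp1 lies on chromosome 9 from 120013755 to 120023598, minus strand, within the span of Cx3cr1, which had a base mean of 7.47. Xirp2 is on chromosome 2 from 67446002 to 67526614, plus strand, and overlaps the antisense gene Gm13601. Strand use in the counting is not given, and reads of both genes over the shared stretch cannot be told apart here.

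Smpx, also called chisel, encodes a very short protein of striated muscle that is found at the costamere. It was the only gene of the 8 called lower, from an implied mean of 6710 to 4766 normalized counts, a 0.710-fold ratio (95% interval 0.623 to 0.809). The authors' deposited table gave -0.49 (SE 0.10, adjusted Wald p = 3.2e-06). Smpx lies on chromosome X from 157698910 to 157752591, plus strand, so both of the firmest changes came from X-linked genes, with opposite signs. The labels used here give no sex, and Xist and Ddx3y, transcripts that mark female and male cells, stood at -0.21 (SE 2.12) and -0.37 (SE 2.89) on the log2 scale in the authors' deposited table, with neither called. With SEs this wide, the lack of a call cannot show whether the groups held the sexes alike. Over the 436 X-linked genes tested, 92 were higher and 68 lower, with a median of 0.084. Among all 14056 genes tested 16.6% were higher and 17.4% lower, with a median of 0.021. The part of sex in these results was not tested.

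Mlip encodes a protein that binds lamin A/C and is found in heart at the nuclear envelope and elsewhere. Its implied means were 1142 and 1046 normalized counts. The authors' deposited table gave -0.13 (SE 0.08, adjusted Wald p = 0.240), with a 95% interval from 0.819-fold to 1.02-fold. The gene covers 77102081 to 77352969 on chromosome 9, minus strand.

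Divided by the length of the longest coding transcript in GENCODE, base means ranged over 163-fold among the 8 genes, and over 741-fold with the shortest coding transcript. Fhl2 was highest with 27230 normalized counts per kb, followed by Ankrd1 with 5600, Smpx with 5279, Ankrd23 with 1690, Xirp1 with 1456, Fhl1 with 687, Mlip with 357 and Xirp2 with 167. Ankrd1 and Smpx did not differ by more than the spread of about 19.8% that the SE of Ankrd1 corresponds to. In the dnMKL1 group alone they separated, at 6466 for Ankrd1 and 4385 for Smpx, whereas in the GFP group the order was Smpx at 6173 and Ankrd1 at 4735. With the median transcript length instead, Smpx (7739) stood above Ankrd1 (5895) and Xirp1 (2760) above Ankrd23 (1960). With the shortest, Xirp1 (26478) came second after Fhl2 (123723). Those orders therefore depend on which transcripts are expressed, which gene-level counts do not show.

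The calls also depend on what the groups are scaled to. The cardiomyocyte markers Myh6, Tnnt2, Tnni3, Actn2, Ryr2, Pln, Myl2, Mybpc3 and Myl3 had 5 of 9 lower and 0 higher, a median of -0.49, and implied means that added up to 1367672 normalized counts with GFP and 855707 with dnMKL1. Single markers ran from -0.11 for Mybpc3 to -1.38 for Myl3. Fewer cells of a type, less RNA per cell and a change in the marker genes themselves cannot be told apart in such bulk libraries. Relative to the median of those markers, 7 of the 8 genes were higher and 0 lower at an adjusted p under 0.05, beside 58.0% and 3.17% of all genes tested, and Smpx stood at -0.007 (adjusted p = 0.956), level with them. With both groups scaled to the same total, which adds 0.29 to every log2 value, 6 were higher and 0 lower, beside 40.4% and 6.60% of all genes tested, and Smpx stood at -0.21 (adjusted p = 0.0664). Over all genes tested, the share of higher genes among those called went from 48.8% under the authors' scaling to 86.0% with equal totals and 94.8% relative to cardiomyocyte markers. Both scalings raise every log2 value by the same amount, so that a gene called higher under the authors' scaling keeps its direction by construction.

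**Figure D4:**
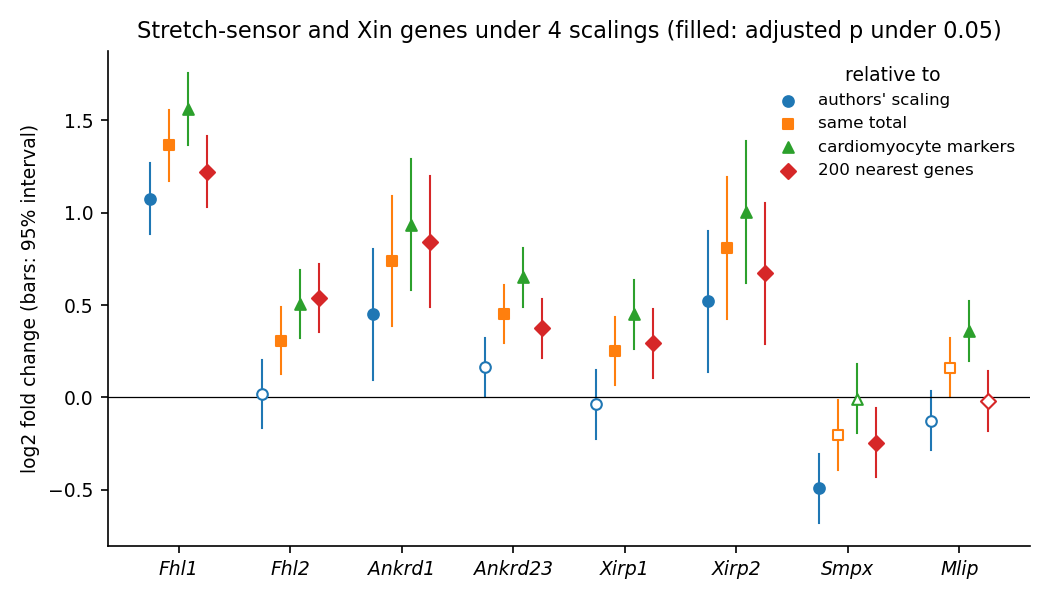
Log2 fold change with its 95% interval for the 8 genes under the authors' scaling (circles), equal group totals (squares), centring on cardiomyocyte markers (triangles) and centring on the 200 genes nearest in base mean (diamonds), filled where the adjusted p is under 0.05. Fhl1, Ankrd1 and Xirp2 are filled and above 0 in all 4, and Smpx is filled below 0 in 2.

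Markers of other cell types were read beside the rises, since Fhl1 in particular is also expressed outside cardiomyocytes. Of 7 fibroblast markers, 3 were higher and 0 lower, and their implied means added up to 3195 normalized counts with GFP and 4424 with dnMKL1, or 1.38-fold, where Fhl1 had 2.11-fold, Xirp2 1.43-fold and Ankrd1 1.37-fold. The 8 markers of smooth muscle and pericytes had 2 higher (Myh11 and Tagln) and 1 lower (Acta2), with sums of 11427 and 6166. Acta2 made up most of those sums, at 10454 and 4999, and the sum of the other 7, each with a positive log2 fold change, went from 973 to 1168. Endothelial markers had 0 of 7 called (sums 2533 and 2628), and macrophage markers 1 higher of 7 tested (sums 147 and 133). Of 7 atrial markers 6 were tested and 1, Stard10, was higher, with sums over the 7 of 2719 and 8477. Nppa made up most of those sums, at 1935 and 7359, but the table lists it without a p-value, so that it could not be called. Its log2 fold change was 1.93 (SE 0.60), and whether 1 library made that rise is unknown. Of 9 markers of skeletal muscle fibres 4 were tested and 1, Mybpc2, was higher, and it made up most of the sums of 718 and 1427. None of these markers was listed at 0. Their part in the rises of Fhl1, Ankrd1 and Xirp2 was not tested.

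The partner genes below are counted under the authors' scaling, to be read against the 16.6% higher and 17.4% lower among all genes tested, and most list counts changed direction with the scaling. Of 13 genes of titin and of the proteins at its spring region, 2 were higher and 3 lower, a share near that of all genes, with a median log2 fold change of -0.01 beside 0.021 over all genes tested. With equal group totals 8 were higher and 0 lower, and relative to cardiomyocyte markers 9 and 0. The authors' deposited table gave -0.41 (SE 0.17, adjusted Wald p = 0.0466) for Ttn, from an implied mean of 34393 to 25950 normalized counts. That call did not hold when the adjustment ran over every deposited p-value (adjusted p = 0.0575), and Ttn stood at 0.10 relative to the 200 genes nearest in base mean. Smyd2, a methyltransferase found at the titin spring, fell by 0.51 on the log2 scale (SE 0.10), and Mapk3, which encodes the kinase ERK1, rose by 0.76 (SE 0.14). Trim63, which encodes the titin-binding ubiquitin ligase MuRF1, rose by 0.14 (SE 0.05) in the authors' deposited table (DESeq2, adjusted Wald p = 0.0137). Map2k1 and Map2k2, kinases upstream of Mapk3, were not called and stood at -0.01 and -0.16.

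Partners of the Xin proteins at the intercalated disc had 2 of 11 higher and 1 lower, a share near the 34.1% called among all genes. Their median log2 fold change was 0.11. With equal totals 8 were higher and 0 lower, and relative to cardiomyocyte markers 9 and 0. Cdh2, which encodes N-cadherin, rose by 0.25 (SE 0.09, adjusted Wald p = 0.0214) and Ctnnb1, which encodes beta-catenin, by 0.17 (SE 0.07, adjusted Wald p = 0.0493) in the authors' deposited table. Ctnna1, which links the cadherin complex to actin, fell by 0.31 (SE 0.09) there, with an adjusted Wald p from DESeq2 of 0.00267. The call of Ctnnb1 was lost when the adjustment ran over every deposited p-value (adjusted p = 0.0609). Flnc, the filamin that binds Xirp1, had 0.38 (SE 0.17) and did not pass.

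The other LIM-domain genes of muscle had 1 of 13 tested higher and 6 lower, beside 16.6% and 17.4% of all genes, with a median log2 fold change of -0.28. The balance turned with the scaling, to 2 higher and 3 lower with equal totals and 5 higher and 2 lower relative to cardiomyocyte markers. In contrast to Fhl1, Fhl3 fell by 2.39 (SE 0.79, adjusted Wald p = 0.0101) in the authors' deposited table, from an implied mean of only 27.0 to 5.15 normalized counts. It was named after its value was seen. Fhl4 had 0.21 (SE 0.30) with a base mean of 19.8, and Fhl5 was listed at 0. Csrp1, a LIM protein of smooth muscle and other cells, rose by 1.50 (SE 0.16) in the authors' deposited table (DESeq2, adjusted Wald p = 1.9e-19), while its cardiac relative Csrp3, a Z-disc protein also known as muscle LIM protein, had -0.08 (SE 0.10). Csrp2, the other relative of Csrp1 in the list, had -0.72 (SE 0.17) and was called lower, opposite to Csrp1. Its implied mean went from 590 to 357 normalized counts, and it too was named after its value was seen. Pdlim7 fell by 0.86 (SE 0.13) and Ldb3, the Z-disc protein cypher, by 0.38 (SE 0.08).

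Among lamins and nuclear envelope genes, 1 of 11 was higher and 2 lower, with a median log2 fold change of -0.15. With equal totals 3 were higher and 0 lower, and relative to cardiomyocyte markers 5 and 0. Lmna, whose products bind Mlip, rose by 0.71 (SE 0.11, adjusted Wald p = 3.5e-09) in the authors' deposited table, from an implied mean of 2166 to 3533 normalized counts. Banf1 fell by 0.33 (SE 0.10), and Lmnb1 fell by 0.59 (SE 0.23). FHL2 is known to restrain calcineurin, and of 12 calcineurin and NFAT genes 1 was higher and 2 lower, with a median of 0.03. With equal totals 6 were higher and 1 lower, and relative to cardiomyocyte markers 8 and 0. In both of these lists the share called under the authors' scaling was near the 34.1% of all genes and is not read as a result. Rcan1, a calcineurin inhibitor that calcineurin itself induces, rose by 0.61 (SE 0.21) in the authors' deposited table (DESeq2, adjusted Wald p = 0.0134). The calcineurin subunits Ppp3cb and Ppp3r1 fell by 0.61 (SE 0.09) and 0.29 (SE 0.10) in the same table. Of the 9 falls named by rule from the partner lists, 1 (Pdlim7) held relative to cardiomyocyte markers and 2 (Pdlim7 and Ppp3cb) with equal group totals. The 7 rises named by that rule could not be lost under these upward shifts.

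**Figure D5:**
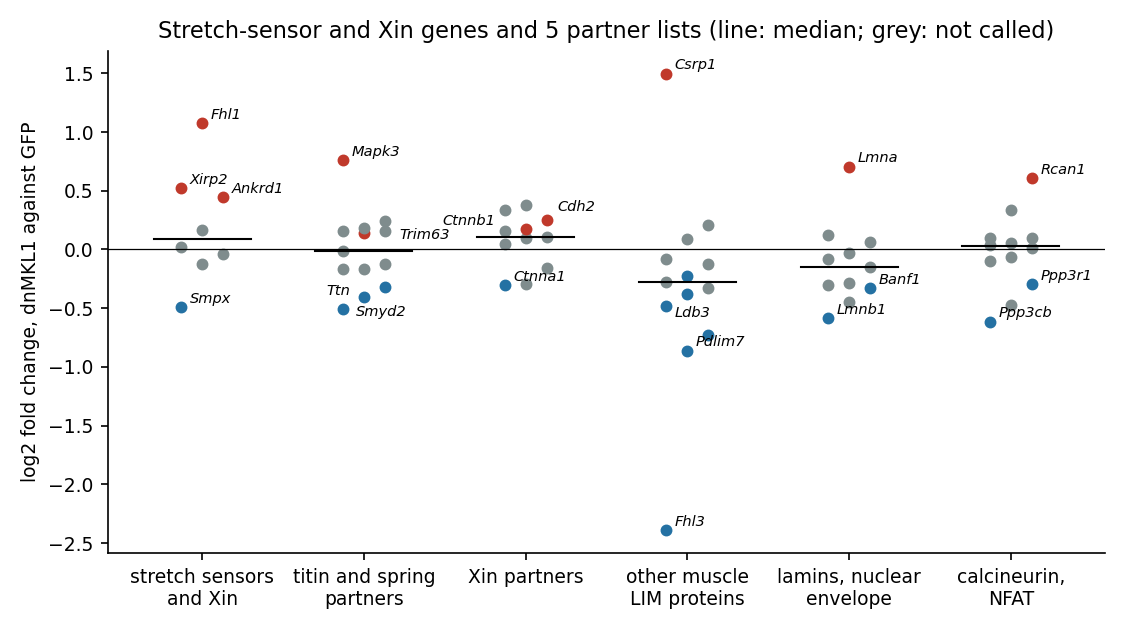
Log2 fold change of dnMKL1 against GFP for each gene with an adjusted p-value (red, higher; blue, lower; grey, not called; line, median), for the 8 genes and the 5 partner lists. Labels mark the called genes among the 8, the partner genes named by rule, and Fhl3. The medians lie between -0.28 for the other muscle LIM proteins and 0.11 for the Xin partners, and Fhl1 and Csrp1 are the only points above 1.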

How the data were processed

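Per the labels' protocols, 10 libraries (5 GFP, 5 dnMKL1) were made from sorted cardiomyocytes with SMART-Seq and Nextera XT kits. The design text names STAR and featureCounts, and the submitters' processing notes give STAR 2.5.3a, Subread 1.5.2 and the build mm10. Annotation and strand use are not given in the sources used here.

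Per the file headers, the authors deposited the columns of a DESeq2 results table: a base mean (a signal in normalized counts), a log2 fold change with its SE, a Wald statistic (a score, the log2 fold change over its SE), and p-values. The authors' Benjamini-Hochberg adjustment over 14056 genes was recomputed to within 1.44e-07. The plan was a count test where counts per library were at hand and otherwise the deposited adjusted p-value under 0.05, which was used.

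Computed here with Python 3.11.15, numpy 2.4.6, scipy 1.17.1 and pandas 2.3.3 were implied group means, for which both groups weigh equally in the base mean, 95% normal intervals, the spread between libraries behind each SE, and calls under other scalings from the shifted fold change and the deposited SE. Simulated data were used to check the implied means, the spread and the calls, but not the intervals or the other scalings. Recovery of the implied means there follows from their definition. Size factors came from genes with 1 read in 1 library. Reads carry no molecular identifiers, so read limits cover counting error only. Coordinates and lengths are from GENCODE M21 and promoters from RefSeq, both on GRCm38, which is the mm10 build.

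The genes and lists were chosen with earlier results of these data known. Named beside the 9 genes were the 3 genes of each partner list with the largest Wald statistics among those called, with Ttn and Lmna always; others are named to complete a family or pathway. Of the planned titin list, 2 genes are not reported here, and its counts and the naming rule cover the others. Alternatives covered thresholds, adjustment, filters on low values, 4 scalings and transcript length.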

Additional observations from a re-analysis of the deposited data

How the results depend on the processing

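The deposited comparison holds no value per library. No paired analysis was possible because replicates enter this comparison only through each gene's SE, and for the same reason the fits that leave out 1 library and other count tests were not run, so whether 1 library decides a value is unknown. The 3 higher genes became 1 at an adjusted p under 0.01 or with an absolute log2 fold change of at least 1, 6 with equal totals or centred on the 200 nearest genes, and 7 centred on cardiomyocyte markers. The 1 lower gene became 0 with equal totals, with cardiomyocyte markers and with a minimum change of 0.5 or 1. Xirp1 reversed to 0.25, 0.45 and 0.29 under equal totals, cardiomyocyte markers and nearest genes, and Mlip to 0.16 and 0.36 under the first 2.

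Counts of called partners went, for titin partners (5), to 2 at 0.01, 8 with equal totals, 9 with cardiomyocyte markers, 2 with a change of at least 0.5 and 0 with at least 1. Xin partners (3) went to 1 at 0.01, 5 at 0.1, 8 with equal totals, 9 with cardiomyocyte markers, 5 with nearest genes and 0 with either minimum change. Other LIM genes (7, of them 1 higher) went to 4 and 2 with changes of at least 0.5 and 1, and to 5 higher and 2 lower with cardiomyocyte markers. Nuclear envelope genes (3) went to 5 at 0.1 and with cardiomyocyte markers and 0 with at least 1. Calcineurin genes (3) went to 1 at 0.01, 7 with equal totals, 8 with cardiomyocyte markers and 0 with at least 1. Centred on cardiomyocyte markers, Banf1 reversed to 0.16, Ctnna1 to 0.18, Ldb3 to 0.11, Ppp3r1 to 0.19 and Ttn to 0.080, and centred on the nearest genes Ctnna1 to 0.11, Ldb3 to 0.058 and Ttn to 0.10. Base mean minimums of 10 and 100 changed 1 of 24 single-gene calls, that of Lmnb1. The range of levels per length was 741-fold with the shortest coding transcripts. Shifts act by construction; the cause of the remaining differences was not tested.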

Other observations

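Over the whole table, genes with a CArG box before the start were called in both directions. Of 148 genes tested with an exact CArG box in a promoter of 250 bases, 21 (14.2%) were higher and 31 (20.9%) lower, beside 16.6% and 17.4% of all genes tested, and their median log2 fold change was 0.01. Genes with a MEF2 site had 15.0% higher and 23.6% lower of 220, and those with an MCAT element 17.5% higher and 17.4% lower of 1321. These counts describe the table and were not tested.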
